A study of Homo sapiens with 6 samples.

Results

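The NF-kB subunits and their inhibitors were examined in HCC1806/HM3 cells after MSLN knockdown. The 10 genes NFKB1, NFKB2, RELA, RELB, REL, NFKBIA, NFKBIB, NFKBIE, BCL3 and TNFAIP3 were taken by symbol from the 17860 genes of the deposited table, and all 10 were present with a value in every sample. HCC1806/HM3 is a liver-metastatic derivative of the human breast squamous carcinoma line HCC1806, obtained by serial passage in mice. In 3 samples (shNC) the cells carried a control hairpin and in the other 3 (shMSLN) a hairpin that targets MSLN. Both came on a lentiviral vector with G418 selection and were stably integrated. The sources used here do not say which MSLN target sequence the sequenced cells carried, or whether the 3 samples of a group came from separate cultures. The p-values therefore measure the spread between these samples, which may be technical.

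NF-kB factors are dimers of REL proteins that I-kB proteins hold in the cytoplasm. In the canonical arm, an IKK complex marks I-kB for degradation and frees RELA and REL with the product of NFKB1. In the non-canonical arm, the kinases NIK and CHUK drive processing of the NFKB2 precursor, which then acts with RELB. Several inhibitors, among them NFKBIA and TNFAIP3, are themselves textbook NF-kB target genes, so they close a negative feedback loop. In breast cancer of the basal type, NF-kB signaling is known for its link to inflammatory gene expression and survival.

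The samples held 17507837 to 18512135 estimated counts in total. MSLN, the targeted gene, fell from 228 ± 2.43 to 36.2 ± 0.895 CPM (estimated counts relative to the TMM-scaled library size; SD, n = 3 each). The basal and squamous markers of the labelled cell type differed widely in level in shNC cells. KRT5 was at 2270 ± 170 CPM and TP63 at 396 ± 20.8 CPM, but KRT14 at only 3.52 ± 0.132 CPM. Of 8 such markers, 4 were lower and 2 higher in shMSLN cells (edgeR adjusted p below 0.05). Over all 14552 tested genes 18% were called lower and 16.6% higher, and the calls of every marker list stand beside these shares. The summed level of the basal and squamous markers was 3700 to 4070 CPM in shNC and 3300 to 3340 CPM in shMSLN samples. Of 5 leukocyte markers 3 were tested and 0 called, with a summed level of 26.5 to 29.5 CPM in shNC and 24.7 to 27.1 CPM in shMSLN samples, most of it CD68, while CD3E had at most 1 read per sample. Of 4 fibroblast markers 3 were tested and DCN was higher (log2 change 0.70, edgeR adjusted p = 0.0389), with sums of 34.3 to 36.4 and 34.9 to 37.3 CPM. The 3 endothelial markers disagreed. VWF was higher (0.41, edgeR adjusted p = 0.0273), whereas CDH5 was lower and just missed the threshold (-0.885, adjusted p = 0.0503). PECAM1 was not called (-0.089), and the sums were 7.15 to 8.57 CPM in shNC and 8.44 to 9.54 CPM in shMSLN samples. Of 3 tested luminal markers ESR1 was higher (0.45, edgeR adjusted p = 0.000363), at 12.0 CPM in shNC and 16.4 CPM in shMSLN cells. GATA3 (273 CPM in shNC) and ERBB2 (154 CPM) were not called. The luminal sums were 428 to 448 CPM in shNC and 435 to 449 CPM in shMSLN samples. The hepatocyte gene ALB had at most 1 read per sample. The part of these marker differences in the results given here was not tested. In these bulk samples, fewer cells expressing a gene and less RNA per cell cannot be told apart. In shMSLN replicates 2 and 3, 47.7% of the genes above 100 reads had whole-number counts, against 3.36% to 7.02% in the other samples. Among the 10 NF-kB genes the number of whole-number counts was 7 in each of these 2 samples and between 0 and 2 in the other 4. Results are therefore also given for shMSLN replicate 1 alone.

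Several of the NF-kB genes are known to carry kB sites, the DNA element that NF-kB dimers bind. The kB consensus was searched on both strands of the promoter windows of RefSeq (GRCh38.p14), which span 250 bases before to 50 bases after a start site. Of the 8 NF-kB genes with a window, 7 had a match, against 13.3% of the 27305 genes in the table. RELA had none in its windows, RELB and NFKBIE were not matched to a window, and the match of BCL3 lies after its start site. The sites upstream of a start site are shown because they set genes that fell in shMSLN cells (NFKB1, NFKB2, NFKBIA and TNFAIP3) beside genes that did not pass the test (REL and NFKBIB). Each line gives 30 bases on the gene's own strand, 5′ to 3′, with the match in capitals. Matches that overlap a printed one are shown once. The most upstream window of NFKB2 had 0 matches. Its other windows, printed as upstream and downstream, each had further matches that are not printed.
NFKB1 (chr4:102501300-102501329, + strand): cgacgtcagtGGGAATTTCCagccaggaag
NFKB2 upstream window (chr10:102394461-102394490, + strand): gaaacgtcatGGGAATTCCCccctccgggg
NFKB2 downstream window (chr10:102395674-102395703, + strand): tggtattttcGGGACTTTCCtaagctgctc
NFKBIA (chr14:35404811-35404840, - strand): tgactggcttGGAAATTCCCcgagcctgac
TNFAIP3 distal (chr6:137867182-137867211, + strand): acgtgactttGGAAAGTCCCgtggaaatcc
TNFAIP3 proximal (chr6:137867194-137867223, + strand): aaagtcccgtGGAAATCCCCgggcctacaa
REL (chr2:60881517-60881546, + strand): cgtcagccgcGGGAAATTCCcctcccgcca
NFKBIB (chr19:38899931-38899960, + strand): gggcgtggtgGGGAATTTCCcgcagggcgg
The last matched base lay 12 bases before the downstream start site of NFKB2, 40 before that of NFKB1 and 72 before that of NFKBIA. For TNFAIP3 this distance was 46 bases at the proximal match, for REL 38 and for NFKBIB 19. A match of these letters is a description of the sequence and was seen in genes of either outcome.

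Transcript levels were first ordered within the control cells. Levels of different genes were compared by the deposited TPM, which is scaled for transcript length. NFKBIA, which encodes I-kB alpha, was the most abundant of the 10 genes at 189 ± 3.35 TPM in shNC cells (SD, n = 3, as for all values of this paragraph). RELA, the p65 subunit, followed at 124 ± 4.68 TPM and NFKB1, the p105 precursor of p50, at 64.2 ± 2.59 TPM. These 3 genes held the same places in each of the 6 samples. NFKB2 (39.1 ± 1.42 TPM), BCL3 (38.6 ± 1.72 TPM) and REL (32.9 ± 5.54 TPM) came next. Both NFKB2 and BCL3 were above REL in every control sample, whereas the range of BCL3 overlapped with that of NFKB2 and of REL across samples. TNFAIP3 (15.9 ± 1.01 TPM), NFKBIE (13.8 ± 1.71 TPM) and RELB (13.4 ± 1.68 TPM) stood in this order within each control sample, although their ranges overlapped across samples. NFKBIB was the lowest in control cells at 8.52 ± 1.24 TPM. In shMSLN cells the top of the order was unchanged, whereas REL at 36.5 ± 2.94 TPM stood above NFKB2 at 27.9 ± 0.622 TPM and BCL3 at 19.4 ± 0.418 TPM in each sample. REL shows why length matters, since it had more CPM than RELA in shNC cells (169 ± 25.6 against 142 ± 2.09) but a much lower TPM.

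**Figure D1:**
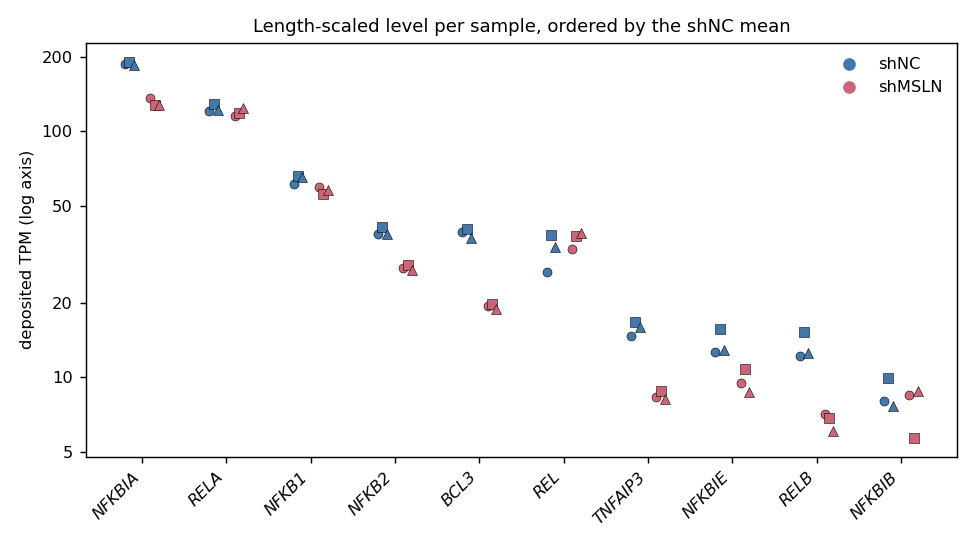
Deposited TPM (log axis) of the 10 NF-kB genes in the 3 shNC and 3 shMSLN samples, 1 point per sample, ordered by the shNC mean. NFKBIA, RELA and NFKB1 lead in every sample, and the points of BCL3, TNFAIP3 and RELB separate most between groups.

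The comparison of shMSLN with shNC cells asks which NF-kB components changed at the RNA level when MSLN was reduced. Of the 10 genes, 7 were lower and 0 higher in shMSLN cells, with an adjusted p of 0.05 as the threshold (edgeR's quasi-likelihood test, Benjamini-Hochberg over all tested genes). Over all 14552 tested genes 18% were called lower and 16.6% higher. The 7 genes were RELB, BCL3, TNFAIP3, NFKBIA, NFKBIE, NFKB2 and NFKB1. At an unadjusted p below 0.05, RELA was lower as well and 0 genes were higher, and DESeq2 and limma-voom also called 0 higher. The median log2 fold change of the 10 genes was -0.53, beside 0.0019 for all tested genes. Of the 5 genes grouped as inhibitors 4 were called and of the 5 subunits 3, with medians of -0.56 and -0.19. The inhibitor group includes BCL3, whose protein can also act with p50 or p52 as an activator. The difference between these groups was not tested. With shMSLN replicate 1 alone against the shNC samples, 6 of the 10 genes were lower, and without that replicate 7 were.

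**Figure D2:**
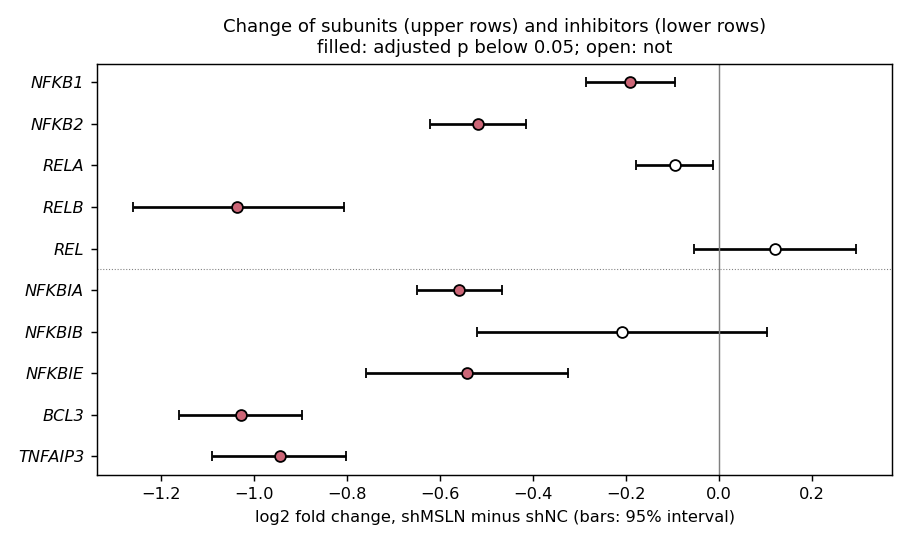
Log2 fold change (shMSLN minus shNC) of the 5 subunits and 5 inhibitors with 95% intervals from the edgeR fit; filled points passed an adjusted p of 0.05. RELB, BCL3 and TNFAIP3 lie near -1, while the intervals of REL and NFKBIB include 0.

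Among the subunits, RELB changed most. RELB (NCBI Gene 5971, chromosome 19 from 45001430 to 45038198, GRCh38) encodes the transactivating partner of p52 in the non-canonical arm. It was measured at 12.8, 15.2 and 12.9 CPM in shNC replicates 1 to 3 and at 7.04, 6.84 and 6.04 CPM in shMSLN replicates 1 to 3. Every shMSLN sample was below every shNC sample, as was the case for 23.5% of all tested genes. The level left was 48.7% of the control, a log2 change of -1.04 ± 0.11 (SE; edgeR adjusted p = 3.70e-06), and 0.632% of the tested genes had a larger fall. RELB rests on few reads, between 107 and 275 per sample, and shNC replicate 2 was the highest.

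NFKB2 (NCBI Gene 4791, chromosome 10 from 102394110 to 102402529) encodes p100, which both restrains RELB and is processed to p52. Its values were 54.2, 55.8 and 54.2 CPM in shNC and 38.2, 39.2 and 37.3 CPM in shMSLN replicates 1 to 3. The samples of a group lay within 2 CPM of each other and the groups were far apart. NFKB2 changed by -0.52 ± 0.049 on the log2 scale (SE; edgeR adjusted p = 1.43e-06), which left 69.9% of the control level. NFKB1 (NCBI Gene 4790, chromosome 4 from 102501329 to 102617302), its canonical counterpart, was at 109, 111 and 115 CPM in shNC and 103, 93.7 and 96.6 CPM in shMSLN samples. The groups did not overlap, and shMSLN replicate 1 was closest to the controls. Its log2 change was small at -0.19 ± 0.045 (SE; edgeR adjusted p = 0.00434). With shMSLN replicate 1 alone it was -0.11 and did not pass (adjusted p = 0.337).

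RELA (NCBI Gene 5970, chromosome 11 from 65653596 to 65663094) is the main transactivating subunit of the canonical arm. It was at 141, 144 and 140 CPM in shNC and 130, 131 and 137 CPM in shMSLN samples. The groups did not overlap, yet the log2 change of -0.095 missed the threshold after adjustment (95% interval -0.18 to -0.012, edgeR adjusted p = 0.0705). Leaving out shNC replicate 1 took it past the threshold (0.0392), and so did the replicate block (0.0458). REL (NCBI Gene 5966, chromosome 2 from 60881521 to 60931610), the c-Rel subunit known from lymphoid cells, was the member with the widest spread in control cells, at 141, 190 and 176 CPM against 169, 188 and 194 CPM. The lowest value was that of shNC replicate 1, and the size of the REL difference depended on which control sample was left out. The log2 fold change was 0.12 (95% interval -0.055 to 0.295, edgeR adjusted p = 0.279), 0.003 without shNC replicate 1 and 0.22 without shNC replicate 2 (adjusted p = 0.03). With the replicate block it was 0.13 (adjusted p = 0.0263). A rise above 0.295 on the log2 scale lies outside the interval of the fit to all 6 samples.

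**Figure D3:**
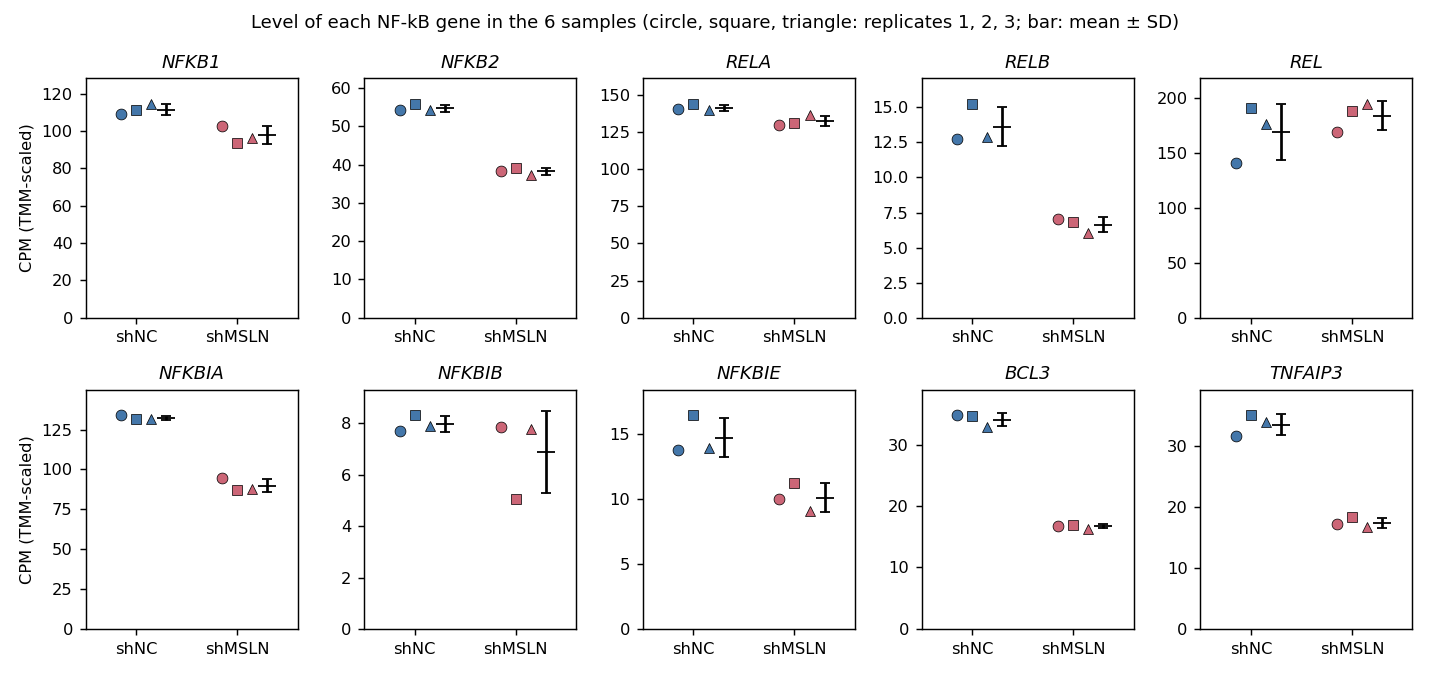
CPM of each NF-kB gene in the 6 samples, 1 panel per gene with its own axis from 0; symbols mark replicates 1 to 3 and bars the mean ± SD. The groups overlap for REL and NFKBIB and are separate, with shMSLN lower, for the other 8 genes, beside 23.5% of all tested genes separate in that direction.

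The classical I-kB proteins differed among themselves. NFKBIA (NCBI Gene 4792, chromosome 14 from 35401511 to 35404749) encodes the inhibitor that is degraded and resynthesized fastest after a stimulus. It was at 134, 132 and 132 CPM in shNC and 94.7, 87.4 and 87.6 CPM in shMSLN samples. The control values were almost the same, and each knockdown value lay well below them. The level left was 67.9% of the control (log2 change -0.56 ± 0.043, SE; edgeR adjusted p = 1.66e-07). NFKBIE (NCBI Gene 4794, chromosome 6 from 44258166 to 44265788), which encodes I-kB epsilon and responds more slowly, was at 13.8, 16.5 and 14 CPM in shNC and 10.0, 11.3 and 9.09 CPM in shMSLN samples. Its relative fall was close to that of NFKBIA although its level was far lower (log2 change -0.54 ± 0.10, SE; edgeR adjusted p = 0.000855). NFKBIB (NCBI Gene 4793, chromosome 19 from 38899700 to 38908893), the I-kB beta gene, was at 7.72, 8.31 and 7.90 CPM in shNC and 7.85, 5.05 and 7.79 CPM in shMSLN samples. Only shMSLN replicate 2 stood apart, and the groups overlapped. Its log2 fold change was -0.21 (95% interval -0.52 to 0.10, adjusted p = 0.292), and -0.027 without shMSLN replicate 2. NFKBIB overlaps SIRT2 on the opposite strand, which was not called (log2 change 0.047, adjusted p = 0.694). Strand use in the counting is not given in the sources used here, so reads from a stretch that both genes share cannot be told apart. How much of their exons overlaps was not examined. The same holds for TNFAIP3 with the antisense gene AL357060.1 and for RELA with the non-coding gene AP001362.2, while REL and BCL3 overlap small or non-coding RNA genes on their own strand.

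BCL3 and TNFAIP3 fell about as far as RELB. BCL3 (NCBI Gene 602, chromosome 19 from 44747705 to 44760044) encodes a nuclear I-kB protein that binds p50 and p52 homodimers and can turn them into activators. It was at 34.8, 34.6 and 32.8 CPM in shNC and 16.8, 17.0 and 16.3 CPM in shMSLN samples. The 3 samples of each group lay close together. BCL3 had the smallest adjusted p of the 10 genes (edgeR, 1.61e-08), for a log2 change of -1.03 ± 0.061 (SE) that left 49.0% of the control level. TNFAIP3 (NCBI Gene 7128, chromosome 6 from 137867188 to 137883312) encodes A20, a ubiquitin-editing enzyme that shuts off signaling above IKK. It was at 31.5, 35.0 and 33.9 CPM in shNC and 17.1, 18.3 and 16.7 CPM in shMSLN samples, with every knockdown value far below the controls. The level left was 51.9% of the control (log2 change -0.94 ± 0.067, SE; edgeR adjusted p = 7.74e-08).

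The subunit transcripts of both arms were then set against each other within each sample, where library scaling cancels. These RNA ratios do not measure the processing of p100 or the activity of either arm. The ratio of NFKB2 to NFKB1 estimated counts was -1.01, -0.99 and -1.08 on the log2 scale in shNC replicates 1 to 3 and -1.43, -1.26 and -1.37 in shMSLN replicates 1 to 3. Every knockdown sample had less NFKB2 per NFKB1 than every control, and the group means differed by -0.33 on the log2 scale. For RELB to RELA the log2 ratio was -3.46, -3.24 and -3.44 in shNC and -4.21, -4.26 and -4.50 in shMSLN samples. This pair moved further, with a difference of -0.94 between the means (SD 0.12 in shNC and 0.16 in shMSLN, n = 3 each). For NFKBIA to RELA it was -0.07, -0.13 and -0.09 in shNC and -0.46, -0.58 and -0.64 in shMSLN samples, so fewer NFKBIA counts stood against each RELA count in every knockdown sample. No test was made of these ratios, since the genes were chosen with results of these data known. In deposited TPM, RELB made up 4.87% ± 0.363 of the summed subunit transcripts in shNC cells and 2.69% ± 0.274 in shMSLN cells, and NFKB2 14.3% ± 0.370 and 11.3% ± 0.439 (SD, n = 3 each). The share of RELA was 45.4% ± 1.04 and 48.1% ± 0.703, and that of NFKB1 was 23.5% ± 0.625 and 23.2% ± 1.06. RELA thus held the largest share in both groups. The classical I-kB transcripts (NFKBIA, NFKBIB and NFKBIE) together summed to 206.6 to 218.2 TPM in shNC and 144.6 to 154.9 TPM in shMSLN samples, while the 5 subunits summed to 259.4 to 289.2 and 243.5 to 254.1 TPM.

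**Figure D4:**
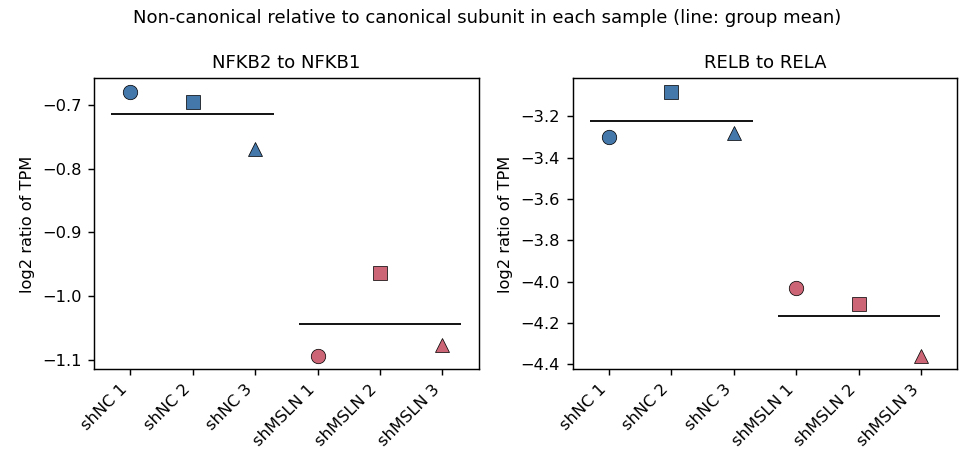
Log2 ratio of deposited TPM of the non-canonical to the canonical subunit in each sample, NFKB2 to NFKB1 on the left and RELB to RELA on the right; lines are group means. All 3 shMSLN samples lie below all 3 shNC samples in both panels.

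The other genes of the pathway were read from lists ordered by role, and the counts stand beside the 18% of all tested genes called lower and 16.6% called higher. Of 6 regulators of the non-canonical arm, 3 were lower and 1 higher in shMSLN cells, with a median log2 fold change of -0.24. CHUK, the kinase that phosphorylates p100, fell from 27.0, 26.0 and 27.7 CPM to 11.9, 14.6 and 13.9 CPM (log2 fold change -1.002, edgeR adjusted p = 2.06e-07). CHUK is also a catalytic subunit of the IKK complex of the canonical arm but was counted in this list alone. BIRC3, the ubiquitin ligase that marks NIK and itself a known NF-kB target, fell from 34.5, 45.5 and 36.8 CPM to 15.3, 16.7 and 15.5 CPM. Both were called under every alternative tried. TRAF3, the adaptor that brings NIK to degradation, fell by 0.28 (log2, edgeR adjusted p = 0.00173), and BIRC2, a relative of BIRC3, rose by 0.16 (adjusted p = 0.012). TRAF3 and BIRC2 lost their calls with shMSLN replicate 1 alone, and BIRC2 also without shMSLN replicate 2. MAP3K14, the gene of NIK, named here after its values were seen, was at 22.5 ± 2.23 and 23.2 ± 0.201 CPM (SD, n = 3 each) and was not called.

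Of 20 kinases and adaptors of the canonical arm, 6 were lower and 1 higher, with a median of -0.064. The number lower was 2 on the log2(TPM + 1) scale, where 39% of the 4338 calls among 14552 genes were lower. It was 3 without shMSLN replicate 3, where 52.1% of the 3765 calls among 14683 genes were lower. With shMSLN replicate 1 alone the median was -0.036. IRAK2 and IRAK1, kinases below the IL-1 and Toll-like receptors, moved in opposite directions. IRAK2 fell from 26.8, 32.7 and 31.7 CPM to 14.8, 13.2 and 14.3 CPM (log2 fold change -1.10, adjusted p = 1.53e-07), and IRAK1 rose from 49.3, 42.2 and 42.3 CPM to 70.9, 67.2 and 66.4 CPM (log2 fold change 0.61, adjusted p = 2.22e-06). BCL10 fell by 0.28 and IKBKB, a catalytic IKK subunit of the canonical arm, by 0.21 on the log2 scale (adjusted p = 0.00153 and 0.00505 by edgeR). Both lost the call with shMSLN replicate 1 alone, IKBKB also on the TPM scale. Of 12 receptors, 3 were lower (25%) and 2 higher (16.7%), shares near those of all tested genes (18% and 16.6%), with a median of 0.0072 whose sign varied over the alternatives. TLR2 fell by 0.44 and IL1R1 by 0.67, whereas IL1RAP, the shared IL-1 receptor subunit, rose by 0.32 and TLR3 by 0.14 (adjusted p = 0.000178, 0.00163, 0.000323 and 0.0318 by edgeR). TLR3 lost its call under 7 of 18 alternatives, among them without shNC replicate 3, shMSLN replicate 1 or shMSLN replicate 3. IL1RAP lost it with shMSLN replicate 1 alone. Of 10 ligands, 6 passed the filter on low counts, with IL1B lower and TNFSF13B higher. IL1B changed by -0.55 (log2, edgeR adjusted p = 0.0138) and TNFSF13B by 0.62 (adjusted p = 0.0402) at 1.75 ± 0.397 and 2.70 ± 0.442 CPM. IL1B lost its call without shNC replicate 3, without shMSLN replicate 2 and with shMSLN replicate 1 alone, and TNFSF13B under 6 alternatives, including DESeq2 and 4 of the 6 fits that left out a sample. IL1A and TNFSF14 were not called (adjusted p = 0.202 and 0.21). TNF itself had between 3 and 15 reads per sample and was not tested.

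Of 6 genes of the ubiquitin ligase machinery that removes I-kB, 1 was lower and 3 higher in shMSLN cells, with a median of 0.094. BTRC, a substrate-binding subunit, fell from 41.2, 41.1 and 42.6 CPM to 29.7, 31.5 and 29.8 CPM (log2 fold change -0.46, adjusted p = 1.33e-05 by edgeR). FBXW11, another substrate-binding subunit, named here after its values were seen, had mean levels of 60.6 CPM in shNC and 63.0 CPM in shMSLN cells. It was not called (log2 fold change 0.054, edgeR adjusted p = 0.408). NEDD8 rose by 0.25, SKP1 by 0.13 and RBX1 by 0.20 (adjusted p = 0.00345, 0.00956 and 0.0418). All 3 rises lost their calls with shMSLN replicate 1 alone, SKP1 also without shMSLN replicate 3, and RBX1 under 6 alternatives that include leaving out shNC replicate 2 or 3 or shMSLN replicate 2 or 3. Of 14 other negative regulators, 5 were lower and 1 higher, with a median of 0.045 whose sign varied over the alternatives. With shMSLN replicate 1 alone the median was 0.039. TNIP1, an A20-binding protein, was at 161, 163 and 162 CPM in shNC and 124, 118 and 119 CPM in shMSLN samples (log2 fold change -0.43, adjusted p = 7.70e-07). ZC3H12A, an RNase that degrades inflammatory transcripts, fell by 0.60 and CYLD, a deubiquitinase, by 0.44, while TRAFD1 rose by 0.31 (adjusted p = 4.17e-06, 0.000779 and 7.21e-05). The nuclear I-kB genes NFKBIZ and NFKBID did not pass the test. NFKBIZ, related to BCL3, was at 152, 177 and 166 CPM against 150, 153 and 157 CPM (log2 fold change -0.11, adjusted p = 0.0964), and it passed with the replicate block and without shNC replicate 1. NFKBID was at 1.84 ± 0.437 and 2.00 ± 0.496 CPM (adjusted p = 0.754).

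Of 32 target genes listed, 23 were tested, and 12 of these were lower and 2 higher in shMSLN cells. Their median log2 fold change was -0.38, between -0.57 and -0.34 over the alternatives. The other 9 were not called. The 2 that rose, named here after their values were seen, were GADD45B by 0.44 and SOD2 by 0.21 (log2, edgeR adjusted p = 3.04e-05 and 0.00704). GADD45B was called under all 18 alternatives, while SOD2 lost its call on the TPM scale and with shMSLN replicate 1 alone. TNFAIP2, LCN2, PLAU and C3 had the smallest adjusted p-values, and all 4 fell. TNFAIP2 went from 1878 ± 39.7 to 938 ± 31.5 CPM (SD, n = 3 each). LCN2, an iron-binding defense protein, fell by 1.27 (log2), PLAU, the urokinase gene, by 0.62 and C3, the central complement component, by 0.64. This list was chosen with earlier results of these data known, so its direction is not independent evidence.

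**Figure D5:**
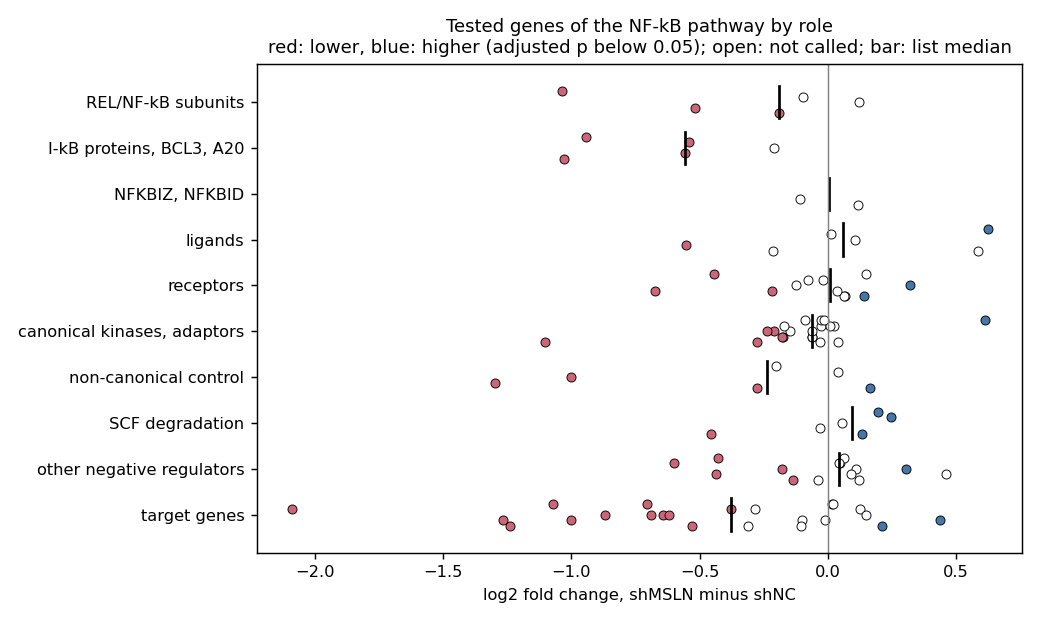
Log2 fold change of every tested gene by role, 1 point per gene, with the list median as a bar; red and blue points passed an adjusted p of 0.05. The inhibitor and target rows have medians of -0.56 and -0.38, while those of the receptors, the degradation machinery and the other negative regulators lie between 0.0072 and 0.094.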

How the data were processed

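RNA of 3 shNC and 3 shMSLN samples was enriched with oligo(dT) and sequenced by BGI. The authors deposited estimated counts, TPM and FPKM per gene for each sample. The deposited estimated counts carry no depth scaling, the deposited TPM values are scaled for length and depth, and the deposited FPKM values were not used. The submitters' processing notes name GRCh38.p13. The aligner, quantifier and annotation are not given in the sources used here. The shMSLN columns held 695 to 1103 missing marks each, none of them in the 10 genes, and genes with a mark were left out of the tests. Groups and replicate numbers come from the labels.

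Rounded counts went through TMM scaling, filterByExpr, glmQLFit and glmQLFTest of edgeR 4.0.16 (R 4.3.3) with group as the sole term, and p-values of the 14552 genes that passed were adjusted by Benjamini-Hochberg. Standard errors are the log2 fold change over the square root of F, and 95% intervals use the fit's total degrees of freedom. RELB had 107 to 275 reads per sample, so counting error limits it, NFKBIB and NFKBIE most. The fits were checked on simulated counts. All 10 genes are named, with the 4 smallest adjusted p-values of each other list and a few more genes marked as named after their values were seen. Those 10 genes and all lists were chosen with earlier results of these data known. Positions are from GENCODE 29 (GRCh38). Alternatives were RLE and upper-quartile scaling, 2 other filters, DESeq2 1.42.0, limma 3.58.1 (voom, and on log2(TPM + 1) and log2(TPM + 0.1)), robust estimation, the replicate block, each sample left out, shMSLN replicate 1 alone and missing values as 0.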

Additional observations from a re-analysis of the deposited data

How the results depend on the processing

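RELB, BCL3, TNFAIP3, NFKBIA, NFKBIE and NFKB2 were called lower under all 18 alternatives, and NFKB1 under 17. The number of the 10 genes called higher was 0 and became 1 (REL) with the replicate block and without shNC replicate 2, and the cause was not tested. With each sample left out it was between 0 and 1, and the number called lower between 7 and 8. With shMSLN replicate 1 alone, 1797 of all genes were called in place of 5032, a fit whose spread comes from the shNC samples only, and the number without each sample ranged from 3695 to 5399. The log2 ratio differences stayed between -0.38 and -0.29 for NFKB2 to NFKB1 and between -0.998 and -0.85 for RELB to RELA. Upper-quartile scaling and the TPM scale changed the share of lower genes among all calls from 52.1% to 42.5% and 39%, and changed no call among the 10 genes.

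The replicate numbers are not stated to pair the samples. Same-numbered samples had correlations of their deviations from the group means of 0.197, 0.0803 and 0.0863, and every sample correlated best with its own number, which is a hint from the data and not from the design. With the replicate block, 5789 genes were called in place of 5032, 8 of the 10 genes lower and 1 higher.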
